A study of Rattus norvegicus with 12 samples.

Results

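The neurofilament genes are the 4 genes Nefh, Nefm, Nefl and Ina, which encode the heavy, medium and light neurofilament subunits and alpha-internexin. They were taken by symbol from the 41596 genes of a polyA RNA sequencing series on rat periaqueductal grey, of which 24540, all 4 of these among them, were abundant enough to be tested. They were chosen by family, with their levels and their differences by sire in these same libraries already known, so every difference between the groups is a description here and carries no test. The level of a gene is its TPM (a length-corrected share of a library's transcripts) summed over the transcripts of its locus, including those that were assembled in the series.

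The libraries came from male Sprague Dawley rats, 6 of them offspring of sires given saline (saline-sired 1 to 6) and 6 offspring of sires given morphine (morphine-sired 1 to 6). The exposure was the father's, and the labels give no treatment of the offspring themselves. Their age, the dose, the litter and the sire of each animal are not given in the labels, and the numbers 1 to 6 only name a library. Any p-value therefore takes the 12 rats as separate observations, although some may be siblings.

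Neurofilaments are the intermediate filaments of neurons. They assemble from the light, medium and heavy subunits together with alpha-internexin or peripherin, fill the axon and set its calibre, and are most abundant in large myelinated axons. The light subunit forms the core of the filament, while the medium and heavy subunits carry long tails that project from it, and the tail of the heavy subunit is known for its many phosphorylated lysine-serine-proline repeats. The periaqueductal grey surrounds the midbrain aqueduct, and groups of large neurons, among them the mesencephalic trigeminal and oculomotor neurons, lie at its border.

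Sequencing depth ran from 4.39 to 6.03 gigabases per library. Libraries differed in markers of neighbouring regions. The cholinergic motor neuron markers summed to 3.19 to 5.93 TPM in saline-sired 1, saline-sired 6 and morphine-sired 1 and to 54.4 to 139 in the other 9 libraries. Cerebellar markers reached 279 TPM in saline-sired 2 and at most 3.42 elsewhere, serotonergic markers spanned 26.8 to 1217, and choroid plexus markers stood at 1802 in morphine-sired 2 and 447 in saline-sired 2 against 13.4 to 78.1 in the other 10. Between the sire groups, 0 of 24540 genes (0%) passed limma's adjusted p of 0.05 on log2(TPM + 1), 790 genes (3.22%) had an unadjusted p under 0.05, and limma-voom on estimated reads gave 0 and 745.

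On the Rnor_6.0 build, Nefl lies on chromosome 15 from 44799334 to 44804574 on the plus strand with 4 exons, and Nefm lies 50735 bases further on, from 44855310 to 44860604 on the minus strand with 3 exons. The pair thus forms a small cluster with the genes pointing towards each other. Nefh lies alone on chromosome 14 (85181572 to 85191557, minus strand, 4 exons) and Ina on chromosome 1 (266781617 to 266794431, plus strand, 3 exons). Each gene has 1 annotated transcript, of 3393 bases for Nefl, 3060 for Nefm, 3843 for Nefh and 4583 for Ina. Nefh is the only member whose locus also holds assembled transcripts, 9 of them.

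The light subunit gene Nefl was the most abundant member in all 12 libraries. In saline-sired 1 to 6 its level was 634, 1108, 1530, 1819, 1665 and 959 TPM, and in morphine-sired 1 to 6 it was 682, 2422, 1160, 1265, 973 and 932 TPM. The groups overlapped throughout: saline-sired 1 and morphine-sired 1 were the lowest of their groups, and the highest level of all was in morphine-sired 2. The group means were 1286 ± 458 and 1239 ± 613 TPM (SD, n = 6 each).

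The medium subunit gene Nefm followed Nefl library by library, at 442, 956, 1368, 1650, 1438 and 787 TPM in the saline-sired and 477, 2123, 1064, 1048, 842 and 752 TPM in the morphine-sired rats. Its means were 1107 ± 456 and 1051 ± 568 TPM (SD, n = 6 each). Saline-sired 1 and morphine-sired 1 were again lowest in their groups and morphine-sired 2 was again highest, so the groups overlapped here too.

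The heavy subunit gene Nefh stood at 362, 666, 1029, 665, 1137 and 625 TPM in the saline-sired and 307, 692, 326, 806, 427 and 212 TPM in the morphine-sired rats, with means of 747 ± 286 and 462 ± 236 TPM (SD, n = 6 each). Here the order of the libraries was different. Morphine-sired 2, by far the highest for Nefl and Nefm, was below the highest saline-sired libraries, and 4 of the 6 morphine-sired libraries lay between 212 and 427 TPM, a range that held 1 saline-sired library. The groups still overlapped.

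Ina, whose product alpha-internexin co-assembles with the other subunits in central axons, varied least. It stood at 210, 234, 269, 293, 273 and 267 TPM in the saline-sired and 237, 325, 221, 261, 236 and 240 TPM in the morphine-sired rats, with means of 258 ± 30.2 and 253 ± 37.5 TPM (SD, n = 6 each). Its highest library was once more morphine-sired 2 and its lowest once more saline-sired 1.

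**Figure D1:**
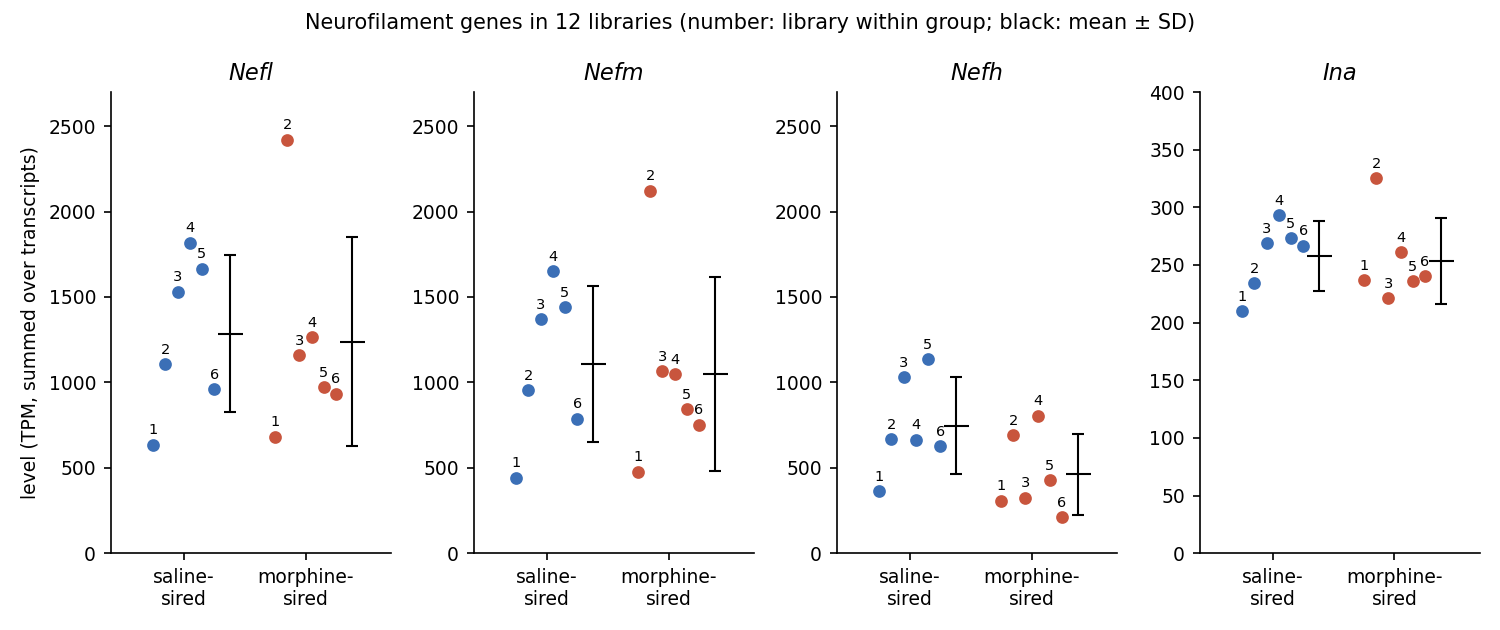
Level in TPM of Nefl, Nefm, Nefh and Ina in each library (points, numbered within group) with the group mean and SD in black; the Ina panel has its own scale. Morphine-sired 2 is the highest library for Nefl (2422 TPM), Nefm (2123 TPM) and Ina (325 TPM) but not for Nefh (692 TPM).

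The order of the levels was nearly fixed. Nefl was above Nefm in 12 of 12 libraries, by a narrow 1.09 to 1.43 times, Nefm was above Nefh in 12 of 12, by 1.22 to 3.55 times, and Nefh was above Ina in 11 of 12, the exception being morphine-sired 6 (212 against 240 TPM). The between-library ranges of Nefl and Nefm overlapped widely, so their order holds within a library and not between libraries. By mean level the members ranked 67 (Nefl), 84 (Nefm), 174 (Nefh) and 593 (Ina) of the 24540 genes tested.

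From the lowest to the highest library, Nefh spanned 5.37-fold, Nefm 4.80-fold, Nefl 3.82-fold and Ina 1.55-fold. The SD of log2(TPM + 1) over the 12 libraries was 0.75 for Nefh, 0.68 for Nefm, 0.57 for Nefl and 0.18 for Ina. Of 1796 genes averaging 100 TPM or more, 97.3% had a smaller spread than Nefh, 96.5% than Nefm, 95.7% than Nefl and 74.2% than Ina. The 3 subunit genes were thus among the most variable abundant genes of the series, while Ina was not.

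Against this spread, the sire differences of 3 members were small. The log2 difference, morphine-sired minus saline-sired on the scale of log2(TPM + 1), was -0.08 ± 0.31 (standard error) for Nefl, with a 95% interval of -0.75 to 0.58, and -0.10 ± 0.37 for Nefm (-0.89 to 0.69). Ina gave -0.03 ± 0.10 (-0.24 to 0.19), the narrowest interval of the 4. Nefh gave -0.75 ± 0.34 (-1.50 to -0.01), or 0.593 times the saline-sired level. In tissue made of many cell types, fewer cells that express a gene and less RNA per cell cannot be told apart.

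No member passed limma's adjusted threshold, where 0% of all genes did, and for none of the 4 were the groups without overlap, where 22 genes (0.0896%) were. All 4 differences were below 0, as were 50.8% of all genes tested, and the median over all genes was -0.0022. The exons of Nefh did not stand at the same level in every library, which bears on its difference and is described next.

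**Figure D2:**
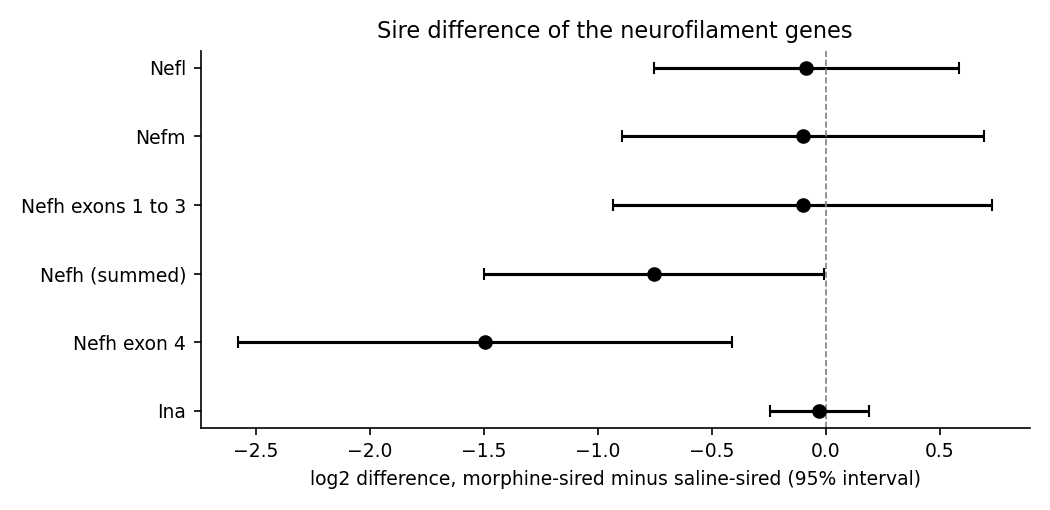
Log2 difference between morphine-sired and saline-sired libraries (point) with its 95% interval (bar) for each member and for the 2 parts of Nefh, n = 6 per group. Nefl, Nefm, Ina and Nefh exons 1 to 3 lie between -0.10 and -0.03, summed Nefh lies at -0.75 and Nefh exon 4 at -1.49.

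The 4 exons of Nefh, in the order of transcription, are 935, 200, 125 and 2583 bases long, so the last exon, which encodes the repeat-rich tail, makes up most of the length that its TPM averages over. Read coverage was put on the TPM scale separately for exons 1 to 3 and for exon 4, by summing over all transcript models of the locus. This split was made after the values had been seen. In exons 1 to 3 the level was 290, 628, 892, 1130, 1021 and 537 in the saline-sired and 365, 1657, 608, 736, 498 and 490 in the morphine-sired libraries. These values have nearly the order seen for Nefl, with morphine-sired 2 and saline-sired 4 highest, and the groups overlapped throughout (means 750 ± 319 and 726 ± 473, SD, n = 6 each).

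In exon 4 the level was 393, 677, 1082, 390, 1167 and 658 in the saline-sired and 255, 185, 174, 826, 360 and 68.7 in the morphine-sired libraries (means 728 ± 332 and 311 ± 270, SD, n = 6 each). Morphine-sired 2, the highest library in exons 1 to 3, was among the lowest in exon 4, and morphine-sired 4 alone of its group was above the saline-sired mean. The groups overlapped in exon 4 as well.

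The ratio of exon 4 to exons 1 to 3 showed which libraries departed. It lay between 1.08 and 1.35 in saline-sired 1, 2, 3, 5 and 6 and at 1.12 in morphine-sired 4. It was 0.697 in morphine-sired 1 and 0.723 in morphine-sired 5. In the remaining libraries it was far lower, at 0.345 in saline-sired 4, 0.286 in morphine-sired 3, 0.140 in morphine-sired 6 and 0.112 in morphine-sired 2. Exon 4 was below exons 1 to 3 in 5 of 6 morphine-sired libraries and in 1 of 6 saline-sired libraries.

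**Figure D3:**
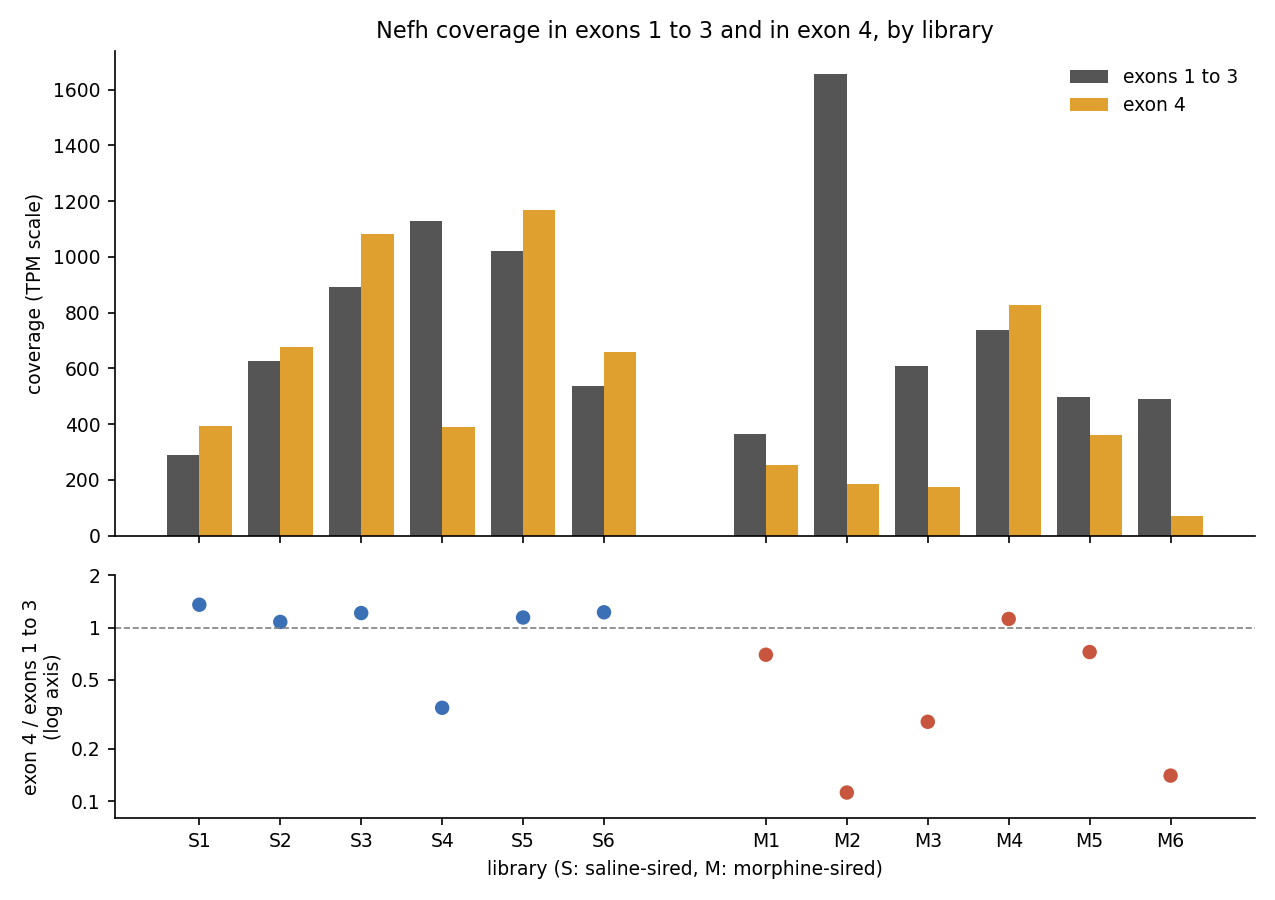
Upper panel: Nefh coverage on the TPM scale in exons 1 to 3 (grey bars) and in exon 4 (yellow bars) in each library. Lower panel: the ratio of exon 4 to exons 1 to 3 on a log axis, with 1 as the dashed line; saline-sired 4 and morphine-sired 2, 3 and 6 lie between 0.112 and 0.345.

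The sire difference of Nefh was not spread evenly over the gene. It was -0.10 ± 0.38 from exons 1 to 3 (95% interval -0.93 to 0.73), close to the -0.08 of Nefl, and -1.49 ± 0.50 from exon 4 (-2.58 to -0.41). The lower summed TPM of Nefh in the morphine-sired group was thus measured in the last exon and not in the first 3. The intervals of the parts are wide, and the cause of the uneven coverage was not tested.

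The assembled transcripts differ from the annotated one by stretches of exon 4 that they leave out. The 9 assembled models together hold 8 distinct gaps of 36 to 450 bases, all between 85183164 and 85183739 on chromosome 14, and all 8 gap lengths are multiples of 18 bases, the length of 6 codons. Depending on the library, reads were assigned to different models. The annotated transcript held 12.8% to 81.2% of the gene's TPM, with a median of 68.8%, and less than 50% in saline-sired 4, morphine-sired 1 and morphine-sired 5.

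In morphine-sired 1 and morphine-sired 5 most of the TPM was assigned to the model that lacks 180 and 54 bases, at 248 and 343 TPM, while this model was at most 34.8 TPM in the other 10 libraries. In saline-sired 4 and morphine-sired 3 the model lacking 36 and 180 bases led the assembled ones, at 196 and 109 TPM, and it was at most 7.67 TPM elsewhere. The model lacking 342 bases was at 147 TPM in morphine-sired 2 and listed at 0 in the other 11. The model lacking only 180 bases led in 5 libraries, saline-sired 1, 2, 5 and 6 and morphine-sired 4, at 63.8, 95.6, 150, 67.4 and 131 TPM. In saline-sired 3 the model lacking only 54 bases led, at 128 TPM, and in morphine-sired 6 the one lacking 54 bases at each of 2 places, at 31.3 TPM. The ratio of exon 4 to exons 1 to 3 was above 1 in 6 libraries. There the leading assembled model had a single gap of 54 or 180 bases. In the 6 libraries below 1 it had 2 gaps or, in morphine-sired 2, a single gap of 342 bases. This pattern was described after the values had been seen, and its link to exon coverage was not tested. In morphine-sired 2 and morphine-sired 6 the annotated transcript held more of the TPM (56.3% and 68.4%) than the leading assembled model (21.2% and 14.8%). Only in morphine-sired 1 and morphine-sired 5 did the leading assembled model hold most of it.

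**Figure D4:**
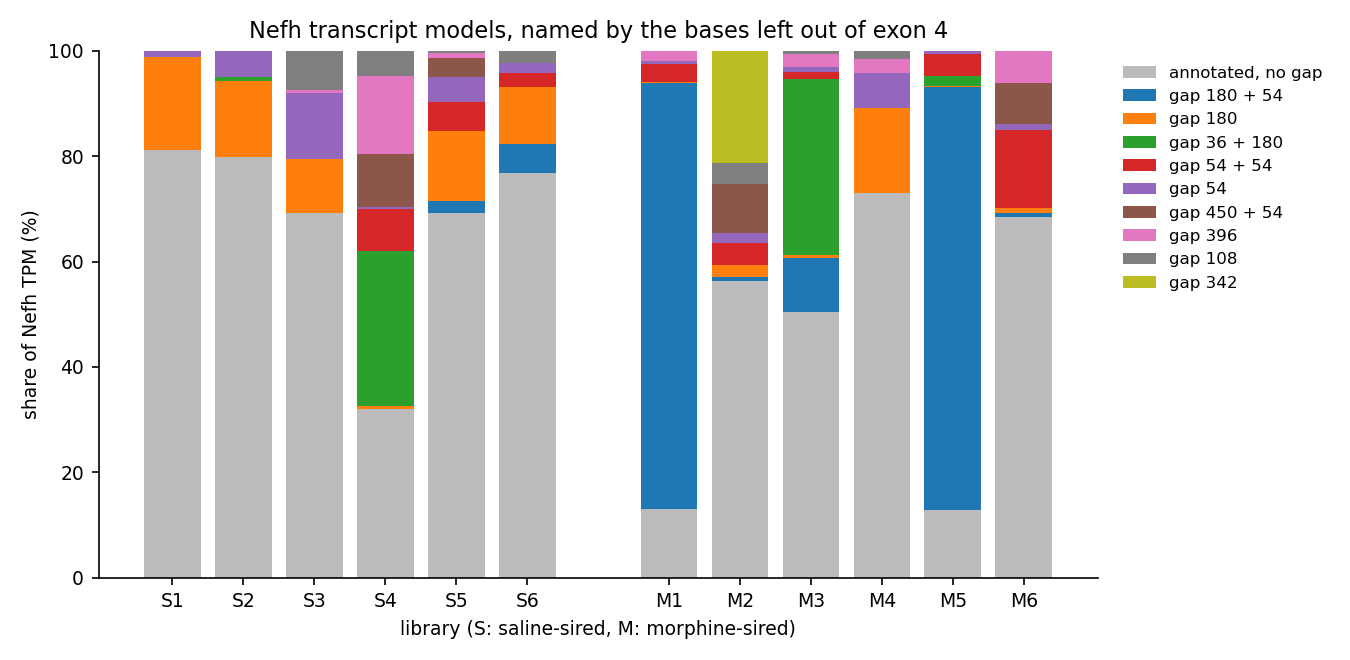
Share of Nefh TPM by transcript model in each library, with each assembled model named by the bases it leaves out of exon 4. The annotated transcript (grey) holds 12.8% to 81.2%, and the leading assembled model differs between libraries.

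The annotated Nefh transcript alone had means of 503 TPM in the saline-sired and 230 TPM in the morphine-sired libraries, a log2 difference of -1.58 ± 0.63. The model lacking 180 bases had means of 81.1 and 25.4 TPM (-3.17 ± 1.18), and the one lacking 180 and 54 bases 10.3 and 106 TPM (2.55 ± 1.60). None of the 13 neurofilament transcripts passed limma's adjusted threshold. Of 50419 transcripts tested, 1 (0.00198%) did, an assembled transcript of Gnao1, which is named after its value was seen and is no neurofilament transcript. The division of reads between models that share most of their sequence is an estimate. The coverage of whole exons was summed over these same models, so it also rests on how reads were assigned to them. The alignments themselves were not examined.

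Uneven exon coverage of this size was not seen in the other members. The ratio of last to first exon spanned 12.3-fold over the libraries for Nefh (0.117 to 1.44), 2.19-fold for Nefl (0.264 to 0.577), 1.39-fold for Nefm (0.783 to 1.09) and 1.37-fold for Ina (1.44 to 1.98). The upper end was saline-sired 1 for every member. The next highest library was at 1.29 for Nefh, 0.382 for Nefl, 0.914 for Nefm and 1.66 for Ina. Over 1385 genes averaging 100 TPM or more, with first and last exons of at least 50 bases, the median span was 1.49-fold. Nefh ranked 35 of these, and 2.45% of the genes had a larger span.

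Some exon patterns were the same in all libraries. The middle exon of Nefm, annotated with 124 bases, had 0.0382 to 0.0529 times the coverage of exon 1 in every library, with exon 3 at 0.783 to 1.09 times. The corresponding small exons of Nefl (exon 2), Nefh (exon 3) and Ina (exon 2) are annotated with 125 bases and were covered at 0.941 to 1.07, 0.990 to 1.26 and 2.18 to 2.54 times exon 1. The low value of the Nefm exon was thus shared by all 12 libraries.

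Transcripts on the opposite strand overlap all 4 members, and the sources used here do not say whether the libraries keep strand. Within exon 4 of Nefh the opposite models held 0.996 on the TPM scale in saline-sired 4, 0.320 in morphine-sired 1 and 3.67 in morphine-sired 2 and were listed at 0 in the other 9 libraries. An annotated transcript of the nucleotidase gene Nt5c2, which overlaps the first exon of Ina, was at 4.95 to 26.9 TPM.

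Read from exons 1 to 3, Nefh had a narrower range of ratios to Nefl than summed Nefh had, but the ratio was not constant. It was lowest in saline-sired 1, where Nefl was lowest (634 TPM), and highest in morphine-sired 2, where Nefl was highest (2422 TPM). The ratio was 0.457 to 0.684 over the 12 libraries, against 0.227 to 0.683 for summed Nefh, 0.697 to 0.918 for Nefm and 0.134 to 0.348 for Ina. The mean log2 ratio of Nefh exons 1 to 3 to Nefl was -0.83 ± 0.16 in the saline-sired and -0.84 ± 0.16 in the morphine-sired libraries (SD, n = 6 each). For summed Nefh it was -0.79 ± 0.34 and -1.46 ± 0.56. Scaling between libraries cannot move these ratios.

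Across the 12 libraries, Pearson's r with Nefl on log2(TPM + 1) was 0.993 for Nefm (Spearman's rho 0.993) and 0.996 for Nefh exons 1 to 3 (rho 0.986). It was 0.668 for summed Nefh (rho 0.741), 0.187 for Nefh exon 4 (rho 0.259) and 0.858 for Ina (rho 0.755). Without the 2 libraries farthest from the median Nefl level these were 0.991 for Nefm, 0.994 for exons 1 to 3 and 0.724 for summed Nefh. For Ina it was 0.688. The values describe genes measured in the same libraries, which share depth and dissection.

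The coefficients were computed again without the libraries that stand apart in regional markers. Without saline-sired 1, saline-sired 6 and morphine-sired 1 (n = 9), r with Nefl was 0.994 for Nefm and 0.998 for Nefh exons 1 to 3. Without saline-sired 2 and morphine-sired 2 (n = 10) it was 0.993 and 0.994. Within the saline-sired group it was 0.997 and 0.998, and within the morphine-sired group 0.989 and 0.995 (n = 6 each). For summed Nefh the same 4 values were 0.626, 0.725, 0.831 and 0.675, so the close relation was one of Nefm and of Nefh exons 1 to 3.

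**Figure D5:**
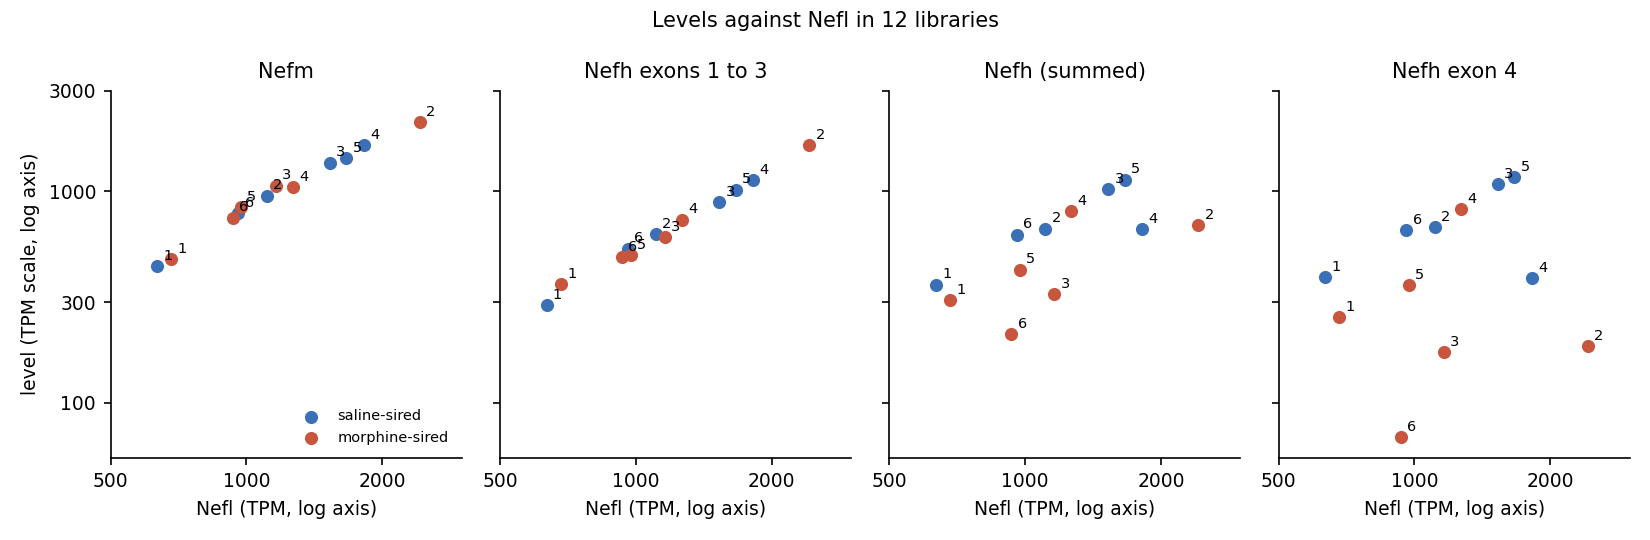
Nefm, Nefh exons 1 to 3, summed Nefh and Nefh exon 4 against Nefl in the 12 libraries, on log axes of TPM. Nefm (r = 0.993) and Nefh exons 1 to 3 (r = 0.996) lie along a line, summed Nefh (r = 0.668) scatters below it and exon 4 (r = 0.187) scatters most.

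The genes most like each member were taken as the 6 with the highest Pearson's r over the 12 libraries among 8916 named genes averaging 10 TPM or more. For Nefl these were Nefm (0.993), Spp1 (0.990), Cabp1 (0.989), Cplx1 (0.970), Gas6 (0.970) and Fam57b (0.969). Spp1 encodes osteopontin, a secreted phosphoprotein made in the brain by large projection neurons among others, and Cplx1 encodes complexin 1 of the synaptic release machinery. Spp1 spanned 86.2 TPM in morphine-sired 1 to 861 TPM in morphine-sired 2, the same ends as Nefl in that group.

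For Nefm the genes were Nefl (0.993), Lgals1 (0.984), Gas6 (0.979), Cabp1 (0.978), Spp1 (0.977) and Vamp1 (0.974). Lgals1 encodes galectin 1 and ran from 45.7 to 437 TPM, and Vamp1 encodes the vesicle protein synaptobrevin 1. Cabp1, which encodes a neuronal calcium-binding protein, shares its locus with another symbol, so its value is uncertain. Nefh exons 1 to 3 gave Nefl (0.996), Cabp1 (0.990), Spp1 (0.986), Nefm (0.983), Fam57b (0.980) and Clec2l (0.974), largely the genes already named for Nefl and Nefm.

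Summed Nefh gave none of these. Its 6 were Hebp2 (0.858), Eif2b4 (0.820), Anxa6 (0.808), Adcy9 (0.807), Srd5a3 (0.795) and Spats2l (0.795), with lower coefficients throughout. For Ina they were Gltp (0.976), Gjb1 (0.972), Tmcc2 (0.970), Capn1 (0.969), Scn4b (0.967) and Eml1 (0.965). Gjb1 encodes connexin 32, a gap junction protein of oligodendrocytes, Capn1 encodes calpain 1, a protease that cleaves neurofilaments, and Scn4b encodes a sodium channel subunit of fast firing neurons.

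The levels were set beside cell type markers through a score, the mean over a list of log2(TPM + 1) minus each gene's mean. The list for large or fast firing neurons held 9 genes, all found, and summed to 2134 to 3996 TPM in the saline-sired and 2145 to 4428 in the morphine-sired libraries. Its score went with Nefl at r = 0.971 (rho 0.902), with Nefh exons 1 to 3 at 0.976 (rho 0.944), with Nefm at 0.950 (rho 0.874) and with Ina at 0.917 (rho 0.881). For summed Nefh r was 0.705 (rho 0.762).

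The list was chosen with earlier results of these data known, and Spp1, Cplx1, Vamp1 and Scn4b are in it and also among the genes most like a member, so these p-values are no independent support. For Nefl and that score the two-sided permutation p was 1e-05, the smallest that 100000 permutations can give, or 0.0002 adjusted over the 60 relations computed, and for rho it was 0.0002, or 0.003 adjusted. For Ina the p of r was 4e-05, or 0.00048 adjusted, and for rho 0.00041, or 0.00403 adjusted. For summed Nefh the p of r was 0.0114, or 0.0427 adjusted, and for rho 0.00572, or 0.0286 adjusted. Without the 2 libraries farthest from the median score, saline-sired 4 and morphine-sired 2, r was 0.948 for Nefl, 0.958 for Nefh exons 1 to 3, 0.915 for Nefm and 0.827 for Ina. For summed Nefh it was 0.822. Within the saline-sired group r with Nefl was 0.986 and within the morphine-sired group 0.978 (n = 6 each).

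The abundant genes of that list were Cplx1, at 971 ± 163 TPM in the saline-sired and 933 ± 158 TPM in the morphine-sired rats, Vamp1 (833 ± 155 and 791 ± 137), Pvalb, the calcium buffer parvalbumin (415 ± 101 and 342 ± 118), and Spp1 (329 ± 207 and 296 ± 285, SD, n = 6 each). None of the 9 passed the test, where 0% of all genes did. All 9 had a lower mean of log2(TPM + 1) in the morphine-sired libraries, with a median difference of -0.13 beside -0.0022 over all genes. The part of these markers in the differences of the neurofilament genes was not tested. Fitting the score as a term was an alternative added after the data had been seen. It gave 0.16 for Nefl, 0.19 for Nefm, 0.05 for Ina, 0.21 for Nefh exons 1 to 3 and -0.56 for summed Nefh. These values cannot show that part, because the score holds genes most like the members and itself had r = 0.971 with Nefl. The pan-neuronal score as a term gave -0.28 for Nefl, -0.36 for Nefm, -0.07 for Ina, -0.32 for Nefh exons 1 to 3 and -0.79 for summed Nefh.

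The general neuronal markers gave no relation past the threshold. The 15 pan-neuronal genes, such as Snap25 (1950 ± 141 and 1860 ± 135 TPM) and Thy1 (1402 ± 148 and 1435 ± 102 TPM, SD, n = 6 each), summed to 8552 to 9692 TPM over all libraries. The score gave r = -0.440 with Nefl (rho -0.503, permutation p of r 0.152, or 0.246 adjusted) and -0.268 with Ina (rho -0.301, p 0.399, or 0.499 adjusted).

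Markers of neurons next to the periaqueductal grey varied with Nefl and Nefm, and for summed Nefh no such relation passed after adjustment. Of the 9 mesencephalic trigeminal markers, the large sensory neurons that lie along its edge, 8 were found and 7 tested. They summed to 112 to 238 TPM, most of it Prph (49.4 to 170 TPM), which encodes peripherin, itself a neuronal intermediate filament, and Ntrk3 (29.6 to 43.9 TPM). The sensory neuron factor Runx3 was at 0 in all libraries and Piezo2 at 0.288 to 1.57. The score gave r = 0.907 with Nefm (rho 0.930, permutation p of r 3e-05, or 0.00045 adjusted) and 0.886 with Nefl (rho 0.916, p 0.00014, or 0.0012 adjusted), and 0.913 and 0.887 without saline-sired 6 and morphine-sired 1. With summed Nefh it was 0.576 (rho 0.615, p 0.0533, or 0.128 adjusted), and with Nefh exons 1 to 3 0.852. With Ina it was 0.558 (rho 0.552, p 0.0592, or 0.137 adjusted). This marker list and those that follow were also chosen with earlier results of these data known. Their p-values are therefore no independent support.

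The catecholamine markers, summed to 85.9 to 268 TPM in 11 libraries and 545 in morphine-sired 2, gave r = 0.861 with Nefl (rho 0.790, permutation p of r 0.00011, or 0.0011 adjusted). Without saline-sired 5 and morphine-sired 2 it was 0.766. With summed Nefh it was 0.490 (rho 0.622, p 0.106, or 0.198 adjusted). With Ina it was 0.775 (rho 0.678, p 0.003, or 0.015 adjusted, while the adjusted p of rho was 0.0579). Without saline-sired 5 and morphine-sired 2 the coefficient with Ina was 0.523. Th, the rate-limiting enzyme of catecholamine synthesis, ran from 19.6 to 309 TPM. The serotonergic score gave r = 0.694 with Nefm (rho 0.741, permutation p of r 0.0122, or 0.0431 adjusted) and 0.680 with Nefl (rho 0.720, p 0.0154, or 0.0478 adjusted), and without saline-sired 2 and morphine-sired 2 these were 0.786 and 0.780. With summed Nefh it was 0.527 (rho 0.566, p 0.0795, or 0.170 adjusted). With Ina it was 0.386 (rho 0.231, p 0.217, or 0.309 adjusted). The cholinergic markers split the libraries into clusters, so no coefficient is given for them. In the 3 libraries with low cholinergic markers Nefl was at 634, 959 and 682 TPM and in the other 9 at 932 to 2422 TPM, so the 3 were at the low end and overlapped the others only through saline-sired 6. Nefm was at 442, 787 and 477 TPM in the 3 and at 752 to 2123 TPM in the other 9.

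Astrocyte markers went the opposite way. The 7 genes, Gfap (289 ± 55.2 and 357 ± 109 TPM) and Slc1a2 (297 ± 14.0 and 330 ± 55.7 TPM, SD, n = 6 each) among them, summed to 1012 to 1688 TPM, and their score gave r = -0.881 with Ina (rho -0.832, permutation p of r 0.00024, or 0.0016 adjusted). Without morphine-sired 2 and morphine-sired 3 it was -0.781. With Nefl it was -0.673 (rho -0.608, p 0.0159, or 0.0478 adjusted, while the adjusted p of rho was 0.0976). Without morphine-sired 2 and morphine-sired 3 the coefficient with Nefl was -0.664. Without saline-sired 2 and morphine-sired 2 the coefficient was -0.484 with Nefl and -0.797 with Ina. TPM values are shares of one total, so genes of different cells are not free of each other.

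The 12 oligodendrocyte and myelin genes, led by Mbp (8361 ± 1165 and 7956 ± 2437 TPM, SD, n = 6 each), summed to 10722 TPM in morphine-sired 3 and 21553 in morphine-sired 2. Their score gave r = 0.659 with Ina (rho 0.552, permutation p of r 0.0199, or 0.0519 adjusted) and 0.498 with Nefl (rho 0.210, p 0.0989, or 0.198 adjusted). Without morphine-sired 1 and morphine-sired 2 these were 0.441 and -0.05, so the positive value for Nefl rests on those libraries. Of the 12 genes, 10 had a lower mean in the morphine-sired group, with a median of -0.14. None passed, where 0% of all genes did.

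Markers of other cells also differed in mean level between the sire groups, and none passed, where 0% of all genes did. Of all genes tested, 50.8% had a log2 difference below 0. Means were higher in the morphine-sired group for 8 of 9 microglial genes (median log2 difference 0.15), 6 of 6 choroid plexus genes (0.63), 4 of 4 blood genes (0.36) and 6 of 7 astrocyte genes (0.08). They were lower for 7 of 7 serotonergic genes (-0.69) and 5 of 5 tested cerebellar genes (-0.74), the latter present at more than a few TPM only in saline-sired 2. Summed choroid plexus and blood markers were at 1802 and 2109 TPM in morphine-sired 2. The other 5 morphine-sired libraries had 24.4 to 74.2 and 690 to 912 TPM. The part of these cells in the neurofilament differences was not tested, beyond fitting the serotonergic score as a term, which gave -0.61 for summed Nefh and 0.12 for Nefh exons 1 to 3.

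The genes that act with neurofilaments were taken from lists of known partners. Of the 79 entries in 8 lists, 78 were tested and none passed in either direction, where 0% of all genes did. Of the 9 other intermediate filament genes, 6 had a higher and 3 a lower mean in the morphine-sired group, with a median log2 difference of 0.02. Vim, the filament of glia and vessels, was at 127 ± 31.7 and 149 ± 67.2 TPM, Prph at 97.3 ± 34.6 and 108 ± 39.3 TPM and the nuclear lamin gene Lmna at 45.4 ± 3.96 and 46.0 ± 3.82 TPM (SD, n = 6 each). Lmna had the smallest relative spread of these.

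The genes of enzymes that act on the tails numbered 13, of which 3 had a higher and 10 a lower mean, with a median of -0.02. Cdk5r2, an activator of the tail kinase Cdk5, was at 241 ± 24.4 and 234 ± 21.5 TPM, the kinase gene Gsk3a at 226 ± 16.3 and 229 ± 16.8, and Ppp2ca, the catalytic subunit of phosphatase 2A, at 193 ± 10.0 and 186 ± 7.96 (SD, n = 6 each). The spread of each was far below that of the subunit genes.

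The 8 axonal transport motor genes had 4 higher and 4 lower means and a median of 0.0035. The kinesin genes Kif5a, which carries neurofilaments along axons, and Kif5c were at 603 ± 44.8 and 611 ± 32.8 and at 370 ± 22.3 and 363 ± 16.2 TPM. The light chain gene Klc1 was at 694 ± 49.9 and 706 ± 46.6 TPM and the dynactin gene Dctn1 at 384 ± 18.4 and 394 ± 11.6 TPM (SD, n = 6 each). Of the 3 linker genes, Plec lay below the filter on low values, and the 2 tested both had lower means. Dst was at 147 ± 18.9 and 140 ± 14.3 TPM and Macf1 at 79.6 ± 8.39 and 77.3 ± 5.72 TPM, both encoding giant proteins that tie filaments to actin and microtubules.

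Of the 7 genes of neurofilament turnover, 3 had a higher and 4 a lower mean (median -0.03). Uchl1, the abundant neuronal ubiquitin hydrolase, was at 2084 ± 130 and 2143 ± 68.6 TPM, the ubiquitin ligase genes Stub1 (in a locus with another symbol) at 318 ± 20.1 and 331 ± 8.31 and Trim2, whose product acts on the light subunit, at 167 ± 5.92 and 156 ± 13.3, and the calpain gene Capn2 at 84.5 ± 7.95 and 84.8 ± 5.61 TPM. The 4 genes listed for neurofilament mRNA binding, among them Sod1 (668 ± 40.0 and 717 ± 35.1), Tardbp (40.2 ± 3.14 and 37.4 ± 3.22) and Arhgef28 (14.6 ± 1.10 and 14.2 ± 1.13 TPM, SD, n = 6 each), had 2 higher and 2 lower means.

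The 20 genes of the microtubule and axon cytoskeleton were split evenly, 10 higher and 10 lower, with a median of 0.0068. Tubb4a was at 2141 ± 281 and 2156 ± 421 TPM, Stmn3 at 1358 ± 72.7 and 1371 ± 62.6, Tubb3 at 1009 ± 104 and 1042 ± 89.7 and Tuba1a, in a locus with another symbol, at 963 ± 75.3 and 956 ± 81.2 (SD, n = 6 each). These tubulin and stathmin genes were as abundant as Nefl and Nefm and varied far less between libraries.

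Of the 15 genes of the axon initial segment and the node of Ranvier, where action potentials start and are renewed, 11 had a lower and 4 a higher mean in the morphine-sired group, with a median of -0.07. The potassium channel subunit gene Kcnab2 was at 353 ± 40.7 and 341 ± 36.6 TPM, the ankyrin gene Ank2 at 294 ± 10.6 and 280 ± 10.0 and the contactin gene Cntn1 at 232 ± 24.2 and 227 ± 5.04 (SD, n = 6 each). None of the 15 passed, where 0% of all genes did.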

How the data were processed

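PolyA RNA of periaqueductal grey from 12 rats was sequenced. The submitters' processing notes list Trimmomatic 0.39, HISAT2 2.2.0 and StringTie 2.1.2 among their tools and Rnor_6.0 as the build, without roles, and the file headers name StringTie 1.3.6. The 12 deposited files hold 76232 transcripts (41063 of them annotated), each with coverage, FPKM and TPM. The authors' table of the whole series was used only to pair transcripts with symbols, and its 12 columns of per-sample values were not used. Read layout and strand are not given in the sources used here. TPM is a share, so abundant transcripts move all others, and reads are divided between overlapping models by estimate.

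TPM was summed per gene and tested with limma 3.58.1 in R 4.3.3 (two-sided, trend, Benjamini-Hochberg) on log2(TPM + 1) at a mean of at least 0.5 TPM, with the sire's treatment alone as a term. Exon coverage was put on the TPM scale with each library's constant ratio of TPM to coverage. Other values were computed with pandas 2.3.3 and numpy 2.4.6 in Python 3.11.15. The fit was tested on simulated data. Depth is the total of bases behind FPKM, taken from coverage over FPKM. An inferred read length of 135 bases served limma-voom.

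Genes named are the 4 members, up to 4 genes of highest mean TPM per list (whole lists of 4 or fewer), and the 6 genes most like each member. Genes of marker lists beyond these (Runx3, Piezo2), Nt5c2, Gnao1 and the genes most like Nefh exons 1 to 3 were named after their values were seen. The members and lists were chosen with earlier results of these data known. Of the list genes, Prph, Gfap, Tubb3, Gap43, Stmn2 and Isl1 are in 2 lists each. Some genes that this rule names are not reported here.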

Additional observations from a re-analysis of the deposited data

Results flagged for a closer look

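In groups of 6 libraries, a value was marked when its gap to the nearest other library exceeded 0.625 of the group's range. Of 46 groups checked (the members, their ratios and all 12 marker lists), 13 were marked, where chance marks about 1 in 20. The library morphine-sired 2 accounts for 8 of them: it stood at 2422 TPM for Nefl (682 to 1265 in the other 5), at 2123 TPM for Nefm (477 to 1064) and at 1657 on the TPM scale for Nefh exons 1 to 3 (365 to 736). In the same library the summed markers were 4428 TPM for large or fast firing neurons (2145 to 2968 in the other 5), 615 TPM for serotonergic neurons (36.0 to 151) and 545 TPM for catecholamine neurons (85.9 to 138). They were 1802 TPM for choroid plexus (24.4 to 74.2) and 2109 TPM for blood (690 to 912). In saline-sired 2 they were 279 TPM for cerebellar neurons (at most 2.94 in the other 5) and 447 TPM for choroid plexus (13.4 to 78.1).

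The library saline-sired 4 was marked for Nefh alone, with a ratio of exon 4 to exons 1 to 3 of 0.345 (1.08 to 1.35 in the other 5 saline-sired libraries) and a ratio of summed Nefh to Nefl of 0.366 (0.571 to 0.683). In saline-sired 1 the ratio of Nefh exons 1 to 3 to Nefl was 0.457 (0.560 to 0.621), just past the limit. That ratio was not the only departure of saline-sired 1. Its coverage of the last exon over the first was the highest of all libraries for every member. It was 1.44 for Nefh, 1.09 for Nefm, 0.577 for Nefl and 1.98 for Ina. The causes were not tested.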

How the results depend on the processing

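The Nefh difference was below 0 in all 29 alternatives, some of which did not use the summed level. Its size depended on the part of the gene that was read: -1.58 from the annotated transcript only, -1.49 from exon 4 and -0.10 from exons 1 to 3. The last 2 were chosen after the data had been seen. Leaving out 1 library each gave -0.95 to -0.56 for summed Nefh, -0.38 to 0.06 for Nefh exons 1 to 3, -0.34 to 0.10 for Nefm, -0.30 to 0.06 for Nefl and -0.10 to 0.01 for Ina, so the last 4 changed sign with single libraries and have no direction of their own. Without saline-sired 2 and morphine-sired 2 Nefl stood at -0.33. With a marker score as a term, Nefl, Nefm and Nefh exons 1 to 3 stood at -0.28, -0.36 and -0.32 (pan-neuronal), -0.18, -0.22 and -0.21 (cholinergic), 0.09, 0.11 and 0.12 (serotonergic) and 0.16, 0.19 and 0.21 (large or fast firing neurons, added after the data had been seen). Genes passing ranged from 0 to 1 over the single omissions and were 1 without saline-sired 1, saline-sired 6 and morphine-sired 1. Transcripts passing ranged from 0 to 2 over the single omissions, and were 0 with no filter on low values, 12 without those 3 libraries and 2 without saline-sired 2 and morphine-sired 2. No neurofilament gene or transcript was among the calls of these fits. No paired analysis was possible because the labels give no replicate numbers that groups share. Median of ratios scaling moved a library by -0.07 to 0.06 on the log2 scale. With 6 rats per group the precision is low: the 95% interval of Nefl spans -0.75 to 0.58.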
